A study of Mus musculus with 8 samples.

Results

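The neuropeptide precursors of the hippocampus examined here were 10 genes chosen by name: Npy, Cck, Penk, Pdyn, Tac1, Tac2, Crh, Adcyap1, Cartpt and Nts. Each was matched by gene symbol to the array's probe table, each had 1 probe set, and all 10 were among the 14629 genes tested of 19505 named on the array. Hippocampal RNA came from 8 transgenic mice between 18 and 20 months old (B6.Cg-Tg(APPswe)E1-2Dbo/J), killed after training in the Morris water maze, a test of spatial memory. By the labels, memory was impaired in 4 mice and intact in 4, with 1 array per mouse. Both groups carried the amyloid precursor protein transgene, so the comparison is between memory outcomes and not between transgenic and normal mice. The promoter that drives the transgene is not given in the sources used here, and sex and litter were not used. Values are log2 intensities after robust multi-array averaging (RMA), on which a step of 1 is a doubling. The study asked which hippocampal genes differ with memory impairment in this model.

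A neuropeptide is made as a longer precursor, cut by prohormone convertases in the secretory pathway, stored in dense-core vesicles and released by strong or repeated firing to act on G-protein-coupled receptors. In the hippocampus most of these precursors mark subsets of GABAergic interneurons, among them Npy and Cck, while Penk and Pdyn are also made by granule cells of the dentate gyrus, whose mossy fibres release opioid peptides. Several of the same genes are abundant in regions that border the hippocampus: Tac1 and Tac2 in the medial habenula and Penk and Tac1 in the striatum. Whole hippocampi were measured, so that fewer cells of a type and less RNA per cell cannot be told apart.

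None of the 10 precursors differed between the groups after adjustment over all genes (limma, adjusted p from 0.961 to 0.995). Over all 14629 genes the same test called 0 genes (0.0%), and 685 (4.68%) had an unadjusted p under 0.05, as did 1 of the 10 precursors, Pdyn. An exact permutation test gave 377 such genes and no precursor. With 4 mice per group its p falls under 0.05 only where the groups do not overlap. The mean was higher in the impaired group for 7 precursors and lower for 3, with a median difference of 0.086, against 47.1% of all genes higher, 52.9% lower and a median of -0.0083. Without each mouse in turn the median of the precursors ran from 0.050 to 0.13. In none of the 10 did the 4 impaired values lie apart from the 4 intact values, against 2.58% of all genes, the same 377. Differences ran from -0.26 for Penk to 0.30 for Adcyap1, and the median standard error was 0.12, close to the 0.10 of all genes tested. Single mice differed more than the groups did: Tac1, Tac2 and Penk had a standard deviation over the 8 mice above that of 99.8%, 99.6% and 99.3% of all genes.

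**Figure D1:**
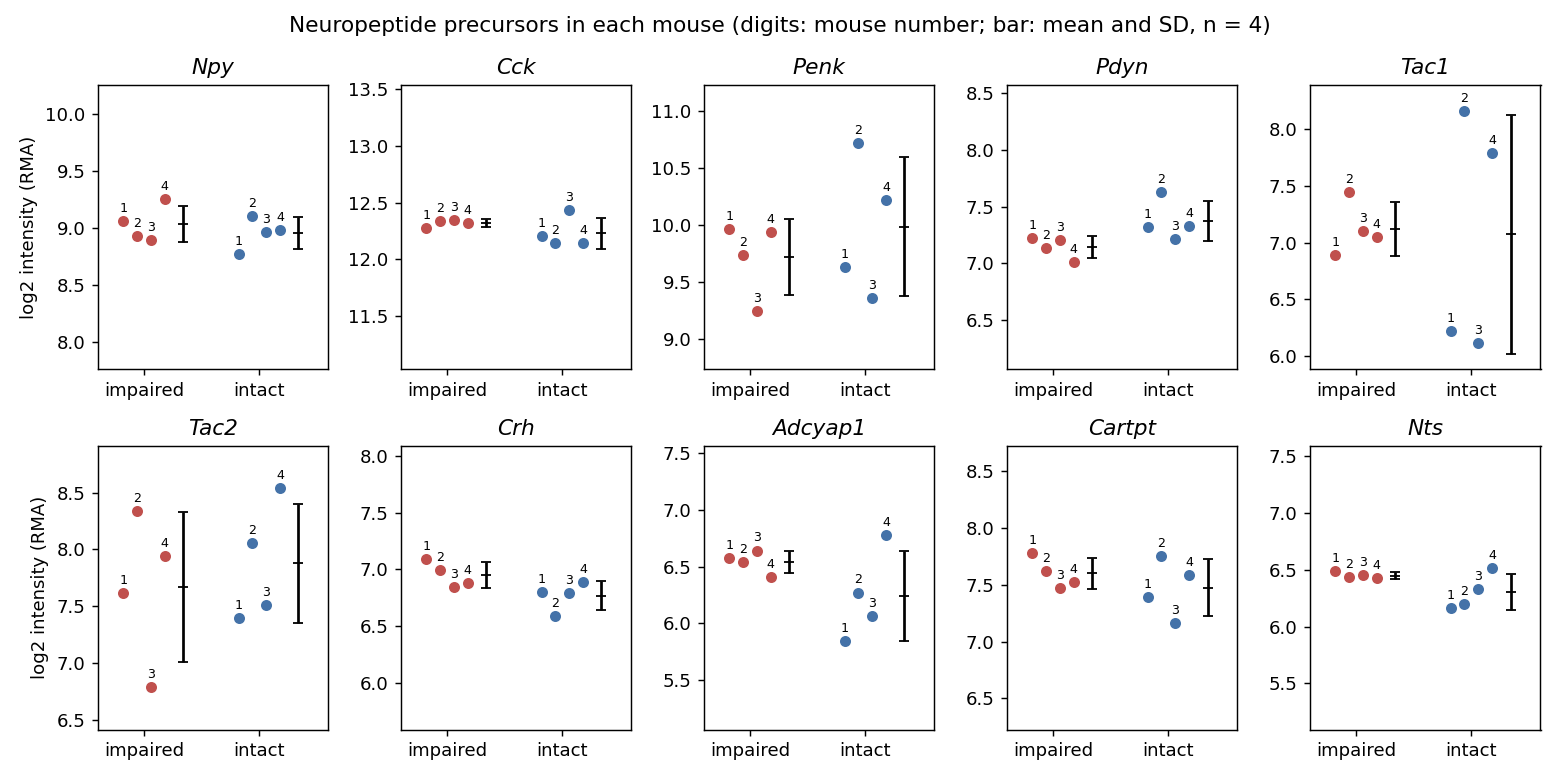
Log2 intensity of each precursor (vertical axis, 2.5 units in every panel) in the 4 impaired and the 4 intact mice, with the mouse number beside each point and the group mean and SD as a bar. The groups overlap in every panel, and Tac1, Tac2 and Penk spread widest, with Tac1 from 6.12 to 8.16.

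**Figure D2:**
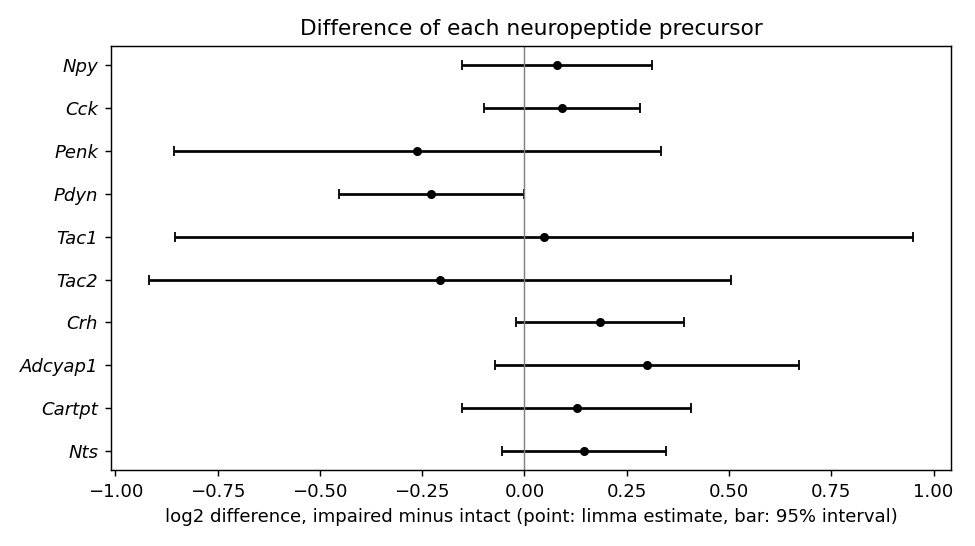
Log2 difference, impaired minus intact, of each precursor with its 95% interval from limma (n = 4 mice per group). The interval of Pdyn ends just below 0, at -0.0023, and those of the other 9 include 0.

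The signals of the 10 genes lay unequally far above background. Probe sets for introns, which serve as a background on this array, had a 75th percentile of 6.30 and a 95th percentile of 7.92. By their means over the 8 mice, Cck, Penk and Npy lay above the higher level. The other 7 lay between the levels, with Nts (mean 6.38) and Adcyap1 (mean 6.39) nearest the lower one. RMA compresses differences of dim probe sets, so the size of a difference is least certain for those 2. In some intact mice the values of Tac1, Adcyap1 and Nts fell below the lower level. Array medians over the tested genes lay between 7.75 and 7.79, and hippocampal neuron markers were present on all arrays, Snap25, a protein of synaptic vesicle fusion, at 13.30 or more. Intact mouse 3 stood apart in the 12 thalamus markers, all of which had their lowest value there.

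The tachykinin genes varied most. Tac1 encodes substance P and neurokinin A, and Tac2 encodes neurokinin B. Their promoters are shown because they belong to the most variable precursors, as the 250 bases before the transcription start from RefSeq on GRCm38.p6, at chr6:7554811-7555060 for Tac1 and chr10:127724228-127724477 for Tac2, both on the plus strand. Capitals mark matches to TGACG or its reverse complement CGTCA, the core of the cAMP response element, a sequence bound by CREB-family factors.
Tac1: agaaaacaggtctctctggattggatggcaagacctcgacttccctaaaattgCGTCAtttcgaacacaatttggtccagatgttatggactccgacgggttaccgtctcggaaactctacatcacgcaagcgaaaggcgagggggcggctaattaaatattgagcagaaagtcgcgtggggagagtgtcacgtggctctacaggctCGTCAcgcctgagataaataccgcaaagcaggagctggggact
Tac2: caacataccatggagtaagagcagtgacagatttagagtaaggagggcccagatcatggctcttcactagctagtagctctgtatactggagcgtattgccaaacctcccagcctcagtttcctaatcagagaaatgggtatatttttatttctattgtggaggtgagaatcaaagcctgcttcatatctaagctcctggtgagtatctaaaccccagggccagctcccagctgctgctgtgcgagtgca
The Tac1 window holds 2 such cores, which begin 197 and 43 bases before the start, and the Tac2 window holds none. Of all 32851 windows of this length 17.8% hold at least 1.

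Tac1 stood at 6.89, 7.44, 7.10 and 7.05 in impaired mice 1 to 4 and at 6.22, 8.16, 6.12 and 7.79 in intact mice 1 to 4. The 4 impaired mice lay close together, and the intact mice fell on both sides of them, with mice 2 and 4 high and mice 1 and 3 low. The means were almost equal, at 7.12 ± 0.23 (SD, n = 4) for impaired and 7.07 ± 1.05 (SD, n = 4) for intact mice, and the difference of the SDs was not tested. The means differed by 0.047 on the log2 scale (standard error 0.41, 95% interval -0.86 to 0.95; limma, adjusted p = 0.995). That interval still allows a level up to 1.81-fold lower or 1.93-fold higher in the impaired mice, so that equal levels are not shown. The sign turned when impaired mouse 2 (-0.061), intact mouse 1 (-0.24) or intact mouse 3 (-0.27) was left out. Without intact mouse 2 or 4 the difference was 0.41 and 0.29.

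Tac2 had values of 7.61, 8.34, 6.79 and 7.94 in impaired mice 1 to 4 and of 7.40, 8.05, 7.51 and 8.54 in intact mice 1 to 4. Impaired mouse 3 was the lowest of the 8 and intact mouse 4 the highest, a range of 3.36-fold. The mean was 7.67 ± 0.66 (SD, n = 4) for the impaired mice and 7.88 ± 0.53 (SD, n = 4) for the intact ones. The difference of -0.21 (standard error 0.32, 95% interval -0.92 to 0.50) was smaller than the spread within either group (limma, adjusted p = 0.977). It was 0.087 without impaired mouse 3 and 0.014 without intact mouse 4.

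Several of the mice that were high or low for the tachykinins were so too for markers of neighbouring regions, with exceptions. The score of a marker list is the mean deviation of its genes from their own means over the 8 mice. For 12 thalamus markers, all tested, it ran from -0.14 to 0.50 in the impaired and from -1.47 to 0.48 in the intact group, with intact mice 2 and 4 at 0.48 and 0.45 and intact mice 1 and 3 at -0.22 and -1.47. For 6 of 9 habenula markers above the floor of 5.33 it ran from -0.34 to 0.64 in the impaired and from -0.71 to 0.48 in the intact group. The remaining habenula markers, Pou4f1, a transcription factor of habenular neurons, and the cholinergic genes Chat and Slc5a7, lay below the floor. All 6 habenula markers were above their own means in impaired mice 2 and 4 and intact mouse 4, and all were below them in intact mice 1 and 3 and impaired mouse 3. Impaired mouse 3, in which Tac2 was lowest, had a habenula score of -0.34 but the highest thalamus score, 0.50, and a Tac1 deviation of 0.0051. Impaired mouse 4 had a habenula score of 0.26 and a Tac1 deviation of -0.050, against 0.18 and 1.06 in intact mouse 2. With the thalamus score as a covariate the difference of Tac1 was -0.30 and that of Tac2 -0.32, and with the habenula score, an alternative chosen after seeing the data, they were -0.15 and -0.39 (limma, adjusted p = 0.904, 0.921, 0.959 and 0.885; unadjusted p = 0.0471 for Tac2 with the habenula score). With the striatum score as a covariate the differences ran the other way, at 0.72 for Tac1 (limma, unadjusted p = 0.0200, adjusted p = 0.927) and 0.044 for Tac2 (limma, adjusted p = 0.994). The direction for Tac1 thus depended on which region's markers entered the fit. What part tissue of these regions has in the tachykinin values was not tested.

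**Figure D3:**
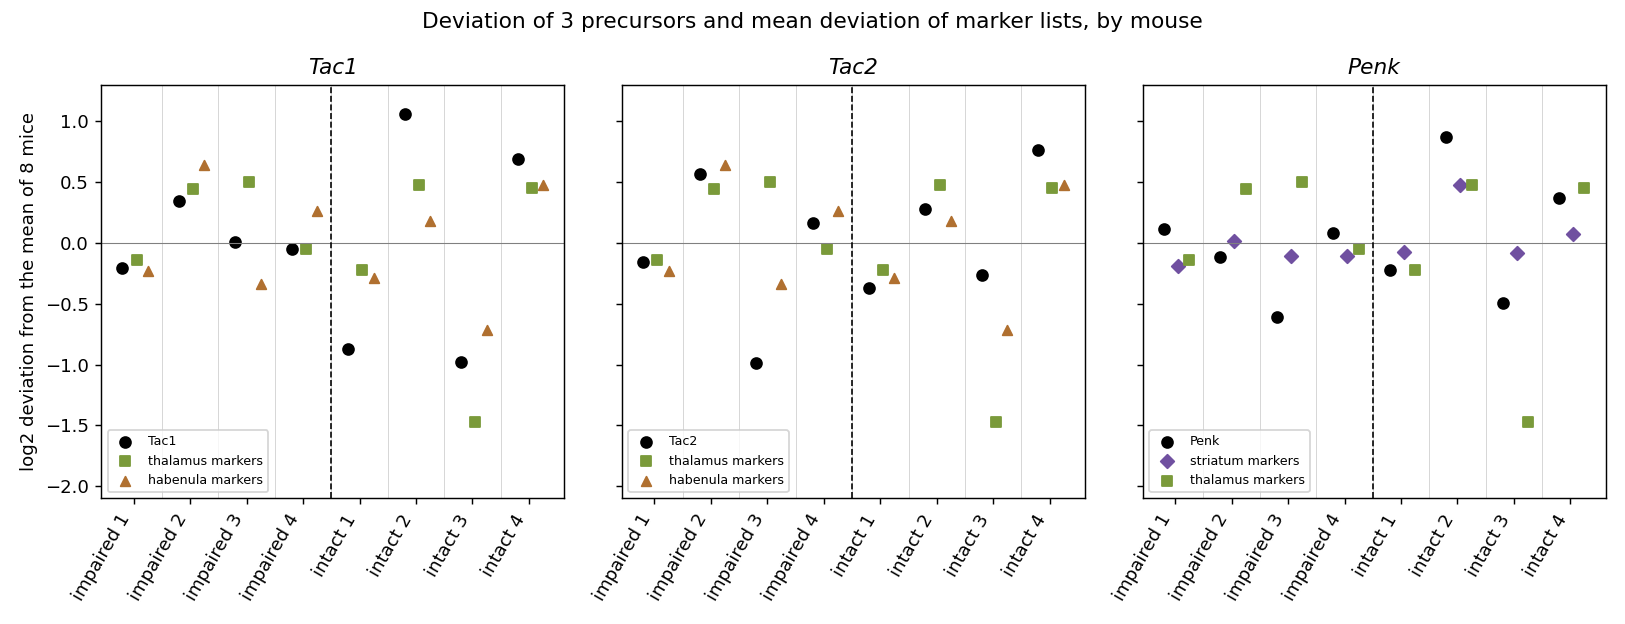
Deviation of Tac1, Tac2 and Penk from their means over the 8 mice (black circles, log2), beside the mean deviation of thalamus markers (squares), habenula markers (triangles) and striatum markers (diamonds), for each mouse. Intact mouse 3 has a thalamus score of -1.47 together with a low Tac1, and intact mouse 2 has the highest striatum score, 0.47, together with the highest Tac1 and Penk.

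Genes whose pattern over the 8 mice was most like that of Tac1 were found by the mean absolute difference between centred log2 values. They were Foxp2, a transcription factor of deep cortex and thalamus (0.22), Tacr1, the receptor for substance P (0.23), Calb2, the calcium-binding protein calretinin (0.23), and Slc17a6, the vesicular glutamate transporter VGLUT2 of subcortical neurons (0.24). The mean absolute deviation of Tac1 itself was 0.53, and the median distance over all genes was 0.55. Tacr1 had values of 6.64, 6.63, 6.70 and 6.82 in impaired mice 1 to 4 and of 5.87, 7.16, 5.93 and 7.31 in intact mice 1 to 4. Ligand and receptor thus shared the narrow impaired group and the divided intact group. Nearest to Tac2 were Hspb11 (0.18), B130024G19Rik (0.19), Chrnb4, a nicotinic receptor subunit of the habenula (0.21), and Arhgap6 (0.22), against a mean absolute deviation of 0.44 for Tac2. The nearest of many genes are close in part by selection, and the measure carries no test.

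The opioid precursors had lower means in the impaired group. Penk, the precursor of the enkephalins, stood at 9.96, 9.74, 9.24 and 9.94 in impaired mice 1 to 4 and at 9.63, 10.72, 9.36 and 10.22 in intact mice 1 to 4. Intact mice 2 and 4 were the highest of all 8, and impaired mouse 3 and intact mouse 3 the lowest. The means of 9.72 ± 0.33 (SD, n = 4) and 9.98 ± 0.61 (SD, n = 4) lay -0.26 apart (standard error 0.27), with a 95% interval from -0.86 to 0.33 (limma, adjusted p = 0.961). Without intact mouse 2 the difference was -0.015, and without intact mouse 3 it was -0.47.

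The score of the striatum markers and Penk were both highest in intact mouse 2 and next highest in intact mouse 4 (score 0.075). Impaired mouse 1, next in order for Penk, had the lowest score. Of 10 striatum markers listed, 7 were tested, and Isl1 lay below the floor. Their score ran from -0.19 to 0.016 in the impaired and from -0.080 to 0.47 in the intact group, with 0.47 in intact mouse 2, where all 7 were above their own means and 5 were the highest of the 8 mice. Among them the dopamine receptor Drd2 was 8.10 in that mouse, against at most 7.19 in the others. With the striatum score as a covariate the difference of Penk was 0.11 (limma, adjusted p = 0.968). With the thalamus, habenula or choroid plexus score it was -0.42, -0.38 and -0.050 (limma, adjusted p = 0.899, 0.887 and 0.998). The part of tissue of these regions in the Penk values was otherwise not tested. The genes most like Penk in pattern were Ecel1, a membrane metallopeptidase (0.15), Nr2f2, the interneuron transcription factor COUP-TFII (0.16), Pisd-ps3 (0.18) and Gal3st1 (0.18), against a mean absolute deviation of 0.36 for Penk.

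Pdyn, the precursor of the dynorphins, was the precursor with the smallest p, and 662 other genes had a smaller one. Its values were 7.23, 7.14, 7.21 and 7.01 in impaired mice 1 to 4 and 7.32, 7.63, 7.21 and 7.33 in intact mice 1 to 4. Intact mice 1, 2 and 4 lay above all impaired mice, while intact mouse 3 lay just below impaired mouse 1. The means were 7.15 ± 0.096 (SD, n = 4) and 7.37 ± 0.18 (SD, n = 4), 1.17-fold lower in the impaired group. The difference of -0.23 had a standard error of 0.10 and a 95% interval from -0.45 to -0.0023, with an unadjusted p of 0.0481 and an adjusted p of 0.961 in limma. The exact permutation p, two-sided, was 0.0571, the next value above the lowest that 4 mice per group allow. The difference was -0.12 with the striatum score as a covariate, and -0.14 without intact mouse 2, in which both Pdyn and that score were highest (limma, unadjusted p = 0.277 and 0.145). With the thalamus score it was -0.28, and without intact mouse 3 also -0.28 (limma, unadjusted p = 0.0170 and 0.0241, adjusted p = 0.888 and 0.925).

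Npy and Cck are the precursors of neuropeptide Y, which dampens glutamate release, and cholecystokinin, which marks a class of basket cells and is also made by pyramidal neurons. Both lay within a narrow range. Npy was 9.06, 8.93, 8.90 and 9.25 in impaired mice 1 to 4 and 8.77, 9.11, 8.96 and 8.98 in intact mice 1 to 4, with means of 9.03 ± 0.16 (SD, n = 4) and 8.95 ± 0.14 (SD, n = 4). Cck was 12.28, 12.34, 12.35 and 12.32 in impaired mice 1 to 4 and 12.20, 12.14, 12.43 and 12.14 in intact mice 1 to 4, with means of 12.32 ± 0.032 (SD, n = 4) and 12.23 ± 0.14 (SD, n = 4). For both genes the lowest mouse was intact, mouse 1 for Npy and mouse 2 for Cck, and the groups overlapped. The 95% interval of the difference was -0.15 to 0.31 for Npy and -0.099 to 0.28 for Cck, so that a difference of more than 1.24-fold in either direction lay outside both (limma, adjusted p = 0.966 and 0.961). The difference of Npy was 0.0083 without impaired mouse 4 and 0.018 without intact mouse 1, against 0.080 with all mice, and 0.13 without impaired mouse 3 or intact mouse 2. That of Cck was 0.091 with all mice and 0.16 without intact mouse 3, its highest mouse. With the choroid plexus, striatum or thalamus score as a covariate it was 0.037, 0.042 and 0.14, and after a further quantile normalization 0.15. None of these settings turned the direction of either gene.

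Crh and Adcyap1, peptides of the stress response, had higher means in the impaired group. Crh encodes corticotropin-releasing hormone, made in the hippocampus by interneurons. It was 7.09, 6.99, 6.85 and 6.88 in impaired mice 1 to 4 and 6.81, 6.59, 6.80 and 6.89 in intact mice 1 to 4. Impaired mice 1 and 2 were above all intact mice, and intact mouse 4 was above impaired mice 3 and 4. The means of 6.95 ± 0.11 (SD, n = 4) and 6.77 ± 0.13 (SD, n = 4) lay 0.18 apart (standard error 0.093), with a 95% interval from -0.021 to 0.39 (limma, unadjusted p = 0.0738, adjusted p = 0.961). With the striatum score as a covariate the difference was 0.11.

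Adcyap1 encodes PACAP, an activator of adenylate cyclase. It was 6.57, 6.54, 6.64 and 6.41 in impaired mice 1 to 4 and 5.85, 6.27, 6.06 and 6.78 in intact mice 1 to 4. Intact mice 1, 2 and 3 were below all impaired mice, and intact mouse 4 was the highest of all. The difference was 0.30, the largest among the precursors in size, or 1.23-fold, with a standard error of 0.17 and a 95% interval from -0.072 to 0.67 (limma, adjusted p = 0.961). It was 0.48 without intact mouse 4 (limma, unadjusted p = 0.0020, adjusted p = 0.862) and 0.17 without intact mouse 1. The impaired mice lay within an SD of 0.098 and the intact mice within 0.40.

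Cartpt and Nts completed the set. Cartpt, the precursor of the CART peptides, is known in the hippocampus from the dentate gyrus, and Nts, the precursor of neurotensin, from the subiculum. Cartpt was 7.78, 7.63, 7.48 and 7.53 in impaired mice 1 to 4 and 7.39, 7.75, 7.17 and 7.59 in intact mice 1 to 4. Its difference was 0.13 (standard error 0.13, 95% interval -0.15 to 0.41), and it was 0.025 without intact mouse 3, the lowest mouse, 0.068 without impaired mouse 1 and 0.22 without intact mouse 2 (limma, adjusted p = 0.961 with all mice). It was 0.27, 0.050 and 0.21 with the striatum, thalamus or choroid plexus score as a covariate.

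Nts was 6.49, 6.43, 6.45 and 6.43 in impaired mice 1 to 4 and 6.17, 6.20, 6.33 and 6.52 in intact mice 1 to 4. As for Adcyap1, intact mice 1 to 3 lay below every impaired mouse and intact mouse 4 above every one. The impaired mice had an SD of 0.027 and the intact mice of 0.16. The difference was 0.14 (standard error 0.091, 95% interval -0.056 to 0.35, limma, adjusted p = 0.961), and 0.22 without intact mouse 4 (limma, unadjusted p = 0.0283, adjusted p = 0.862). Without intact mouse 1 or 2 it was 0.099 and 0.11 (limma, unadjusted p = 0.330 and 0.290).

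Cck and Nts varied least of the precursors, with SDs of 0.10 and 0.13 over the 8 mice. Of the precursor windows searched, only that of Cartpt held a complete cAMP response element, TGACGTCA. For contrast with the tachykinins, the promoters of these genes are shown. They are the 250 bases before the start on GRCm38.p6, at chr9:121495695-121495944 for Cck, chr10:102490419-102490668 for Nts and chr13:99900684-99900933 for Cartpt, all on the minus strand and written in the direction of the gene. Capitals mark the complete element, its core TGACG or CGTCA, and the AP-1 motif TGANTCA, bound by Fos and Jun proteins.
Cck: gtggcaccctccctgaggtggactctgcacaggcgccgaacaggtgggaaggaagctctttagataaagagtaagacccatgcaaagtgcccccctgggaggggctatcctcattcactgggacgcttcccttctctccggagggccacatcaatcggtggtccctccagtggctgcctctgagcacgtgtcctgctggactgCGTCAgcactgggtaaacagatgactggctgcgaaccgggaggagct
Nts: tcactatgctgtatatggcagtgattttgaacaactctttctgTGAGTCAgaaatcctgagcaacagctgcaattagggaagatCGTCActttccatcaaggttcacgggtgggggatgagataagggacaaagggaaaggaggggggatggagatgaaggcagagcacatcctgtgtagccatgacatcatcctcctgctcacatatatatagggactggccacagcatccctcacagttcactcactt
Cartpt: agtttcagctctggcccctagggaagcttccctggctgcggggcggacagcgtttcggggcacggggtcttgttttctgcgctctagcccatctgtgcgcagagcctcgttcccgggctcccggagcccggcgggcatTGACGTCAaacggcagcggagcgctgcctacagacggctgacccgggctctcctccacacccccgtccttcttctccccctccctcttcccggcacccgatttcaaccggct
The complete element begins 112 bases before the Cartpt start and contains a core on each strand, and the AP-1 motif begins 207 bases before the Nts start. Of the precursors 8 had an entry in the RefSeq table, with 10 windows, since Pdyn and Adcyap1 have 2 each. Penk and Crh had no entry and were not searched. On either strand the core occurred in 6 of these 10 windows (17.8% of all windows). The 2 Adcyap1 windows overlap and hold the same core, so that by gene it occurred in 5 of 8, Adcyap1, Cartpt, Cck, Nts and Tac1 (19.8% of all genes with a window). The complete element occurred in 1 of them (1.55% of all windows) and AP-1 in 1 (6.75% of all windows). The core is thus present in the least and in one of the most variable precursors alike. A match is a string of letters and not a measured binding site.

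The precursors also had an uneven share of extremes among the mice. Intact mouse 4 was above the mean of the 8 mice for 8 of the 10 precursors and the highest for 3, Tac2, Adcyap1 and Nts. Intact mouse 2 was the highest for another 3, Penk, Pdyn and Tac1, and the lowest for 2, Cck and Crh. Intact mice 1 and 3 were above the mean for only 1 each, Pdyn and Cck. Impaired mice 1, 2 and 4 were above it for 7 each and impaired mouse 3 for 4. GABAergic interneuron markers, of which 12 of 12 were tested, had scores of 0.10 and 0.074 in intact mice 2 and 4, of -0.079 and -0.18 in intact mice 1 and 3 and of -0.096 to 0.084 in the impaired mice. The list holds Calb2, named above as near to Tac1 in pattern. Of the 12 markers, 4, 8, 4 and 7 were above their own means in intact mice 1 to 4. In impaired mice 1 to 4 the counts were 8, 11, 5 and 4. The part of these markers in the precursor values was not tested.

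Among the receptors of these peptides no gene passed the test. Of 19 listed, 18 were measured and tested, 10 with a higher and 8 with a lower mean in the impaired group, and the median difference was 0.034, or from -0.020 to 0.039 without each mouse in turn. At an unadjusted p under 0.05 there were 0 higher and 1 lower, against 2.17% and 2.52% of all genes. The lower one was Npy2r, the presynaptic Y2 receptor of neuropeptide Y, at 8.70, 8.50, 8.71 and 8.76 in impaired mice 1 to 4 and 8.97, 8.76, 9.03 and 8.78 in intact mice 1 to 4. The groups touched without overlapping, and the difference was -0.22 (standard error 0.095, limma, unadjusted p = 0.0445, adjusted p = 0.961). The other neuropeptide Y receptors, Npy1r and Npy5r, differed by 0.10 and -0.064.

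Among the opioid receptors, the kappa receptor Oprk1, on which dynorphin acts, differed by -0.19 (standard error 0.11), the mu receptor Oprm1 by 0.14 (standard error 0.25) and the delta receptor Oprd1 by 0.095 (standard error 0.098). Oprk1, with means of 5.85 and 6.04, and Tacr3, with means of 6.20 and 6.11, lay below the 75th percentile of the intron background, the only 2 of the 18 receptors to do so. The neurokinin B receptor Tacr3 differed by 0.090, the cholecystokinin receptor Cckbr by -0.037, Crhr1 by -0.076 and Crhr2 by 0.042. The PACAP receptor Adcyap1r1 differed by 0.032, and Vipr1 and Vipr2, which PACAP shares with VIP, by 0.085 and 0.18. For the neurotensin receptors Ntsr1, Ntsr2 and Sort1 the differences were -0.015, -0.045 and 0.037. The nociceptin receptor Oprl1 differed by -0.0073. Apart from Npy2r, the 95% interval of every receptor included 0.

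**Figure D4:**
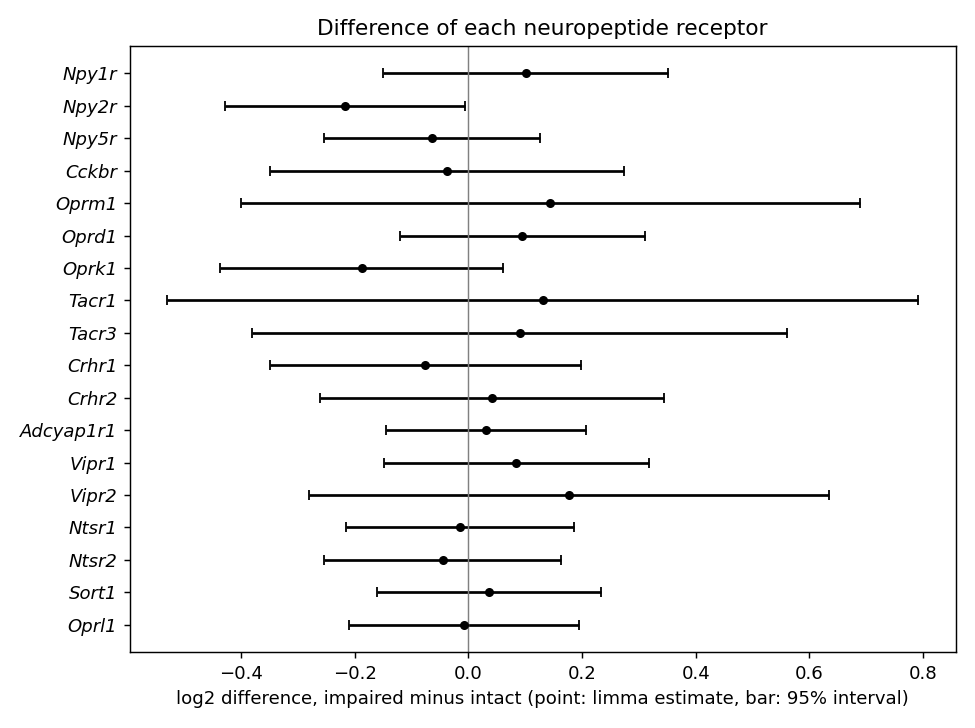
Log2 difference, impaired minus intact, of 18 neuropeptide receptors with 95% intervals from limma (n = 4 mice per group). The interval of Npy2r ends just below 0, those of the other 17 include 0, and that of Tacr1 is the widest.

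Among 33 other neuropeptide precursors, 29 were measured and 22 tested, 13 with a higher and 9 with a lower mean in the impaired group, with a median difference of 0.030, a mean difference of -0.00094 and none at an unadjusted p under 0.05. Sst, the somatostatin precursor of dendrite-targeting interneurons, was 12.76 ± 0.19 (SD, n = 4) for impaired and 12.82 ± 0.079 (SD, n = 4) for intact mice. The smallest p belonged to Npw, the neuropeptide W precursor, with a difference of 0.26, and Prok2, prokineticin 2, with -0.33 (limma, unadjusted p = 0.0578 and 0.0620). The precursors Gal, Hcrt, Pmch, Npvf, Nmu, Nms and Nps lay below the floor for testing. Several of these are peptides of the hypothalamus.

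Of 12 genes that process precursors, 11 were tested, 5 with a higher and 6 with a lower mean, and 1 had an unadjusted p under 0.05. That gene was Scg5, the chaperone of a prohormone convertase, with a difference of -0.74 and groups that do not overlap (limma, adjusted p = 0.267). The convertase Pcsk1 differed by 0.025 (standard error 0.12) and the carboxypeptidase Cpe, which trims the cut peptides, by -0.16 (standard error 0.10). Furin, a convertase of the trans-Golgi network, differed by 0.17. Of the 5 granins, cargo proteins of dense-core vesicles, 1 had a higher mean, Vgf at 0.17, and 4 had lower ones, among them Scg3 at -0.19, and 0 had an unadjusted p under 0.05.

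Of 13 peptidases that degrade neuropeptides, together with the CRH-binding protein, 11 were measured and 10 tested, 5 with a higher and 5 with a lower mean. Npepps, the puromycin-sensitive aminopeptidase that cleaves enkephalins, differed by -0.22 (standard error 0.097, limma, unadjusted p = 0.0478, adjusted p = 0.961), and its groups overlapped. Nln, which cleaves neurotensin, differed by 0.14, and Crhbp, which binds CRH, by -0.080. For these lists as for the precursors, limma called 0 genes at an adjusted p under 0.05.

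Markers of hippocampal neurons were divided between the directions. The mean was higher in the impaired group for 3 of 7 dentate granule cell markers, 2 of 5 CA1 markers, 4 of 8 CA3 and CA2 markers and 7 of 12 GABAergic interneuron markers, with median differences of -0.065, -0.079, -0.028 and 0.011. Among the CA3 and CA2 markers 1 was higher and 1 lower at an unadjusted p under 0.05, and in the other lists of this group 0 were. The medians of the CA1, the CA3 and CA2 and the interneuron lists changed sign when certain single mice were left out, and the mean difference of the CA1 list, 0.023, had the opposite sign to its median.

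Of the genes induced by neuronal activity, 9 of 13 had a higher mean (median 0.14) and 0 an unadjusted p under 0.05. Impaired mouse 1 was the highest of the 8 mice for 11 of them, and without it 6 of 13 had a higher mean (median -0.0014). Of regions outside the hippocampus, 12 of 12 thalamus markers and 5 of 6 habenula markers had higher means (medians 0.35 and 0.16). Without intact mouse 3 these were 2 of 12 and 2 of 6 (medians -0.070 and -0.036), and without impaired mouse 2 the habenula list had 2 of 6 (median -0.047). The direction of both lists thus rested on single mice. All 7 striatum markers had lower means (median -0.17), and without intact mouse 2 there were 5 of 7 (median -0.081). All 11 choroid plexus markers had lower means (median -0.61), a median that was -0.23 with impaired mouse 3 left out, -0.33 with intact mouse 1 left out and -0.97 with intact mouse 3 left out. Deep cortex and subiculum markers were higher in 4 of 8 and hypothalamus markers in 4 of 5 (medians -0.0043 and 0.021), and both medians changed sign when certain single mice were left out. Their mean differences, 0.048 and -0.036, had the opposite signs. Of these 6 region lists only that of the hypothalamus held a gene at an unadjusted p under 0.05. That gene was Nkx2-4, with a lower mean, and no marker passed the adjusted threshold.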

How the data were processed

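Hippocampal RNA of 8 mice was hybridised to 1-colour Affymetrix arrays, after amplification of 1 ng of total RNA per the labels' protocols. The deposited values are log2 intensities that the authors made with RMA, per the submitters' processing notes; the software version is not given in the sources used here. Probe sets were named from the platform's table (19572 with 1 symbol, 0 with several), and of several for a gene the brightest by mean served. A floor of 5.33 removed the dimmest 25% of genes. Differences, impaired minus intact, were fitted over all 14629 genes by limma (version 3.58.1, R 4.3.3) with moderated two-sided tests, Benjamini-Hochberg adjustment and a threshold of 0.05, checked on simulated data. The number of arrays limits the precision. Scan batches were not used. Named were the precursors, all listed receptors, Scg5, Pcsk1, Cpe, the 2 genes of smallest p in each peptide list and 4 genes of most alike pattern for the 3 most variable precursors. Sst, Pnoc, Pomc, Crhbp and single marker genes were named after their values were seen. The precursors and lists were chosen with earlier results of these data known. Pcsk2 and Cckar were not analysed here. Promoter bases are RefSeq's on GRCm38.p6.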

Additional observations from a re-analysis of the deposited data

Results flagged for a closer look

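In 71 genes named by rule, precursors included, each group of 4 was searched for a mouse far from the other 3, by the gap to the nearest mouse as a share of the group's range (Dixon's test, 95% limit). Of 142 groups 6 had one, where chance gives about 1 in 20, and none was in a precursor. Hspb11, whose pattern was nearest to that of Tac2, was 4.52 in impaired mouse 3, against 5.70 to 5.85 in the other impaired mice, and Tac2 was lowest in the same mouse. The carboxypeptidase Cpe was 10.90 in impaired mouse 2, against 11.19 to 11.25. Wfs1, a marker of CA1 pyramidal neurons, was 9.17 in intact mouse 4, against 9.69 to 9.75. Map3k15, listed with CA2 and CA3 markers, was 6.04 in impaired mouse 1, against 5.69 to 5.73. Of the cortical and subicular list, Fn1 was 8.24 in impaired mouse 2, against 8.40 to 8.42, and Tle4 was 9.10 in impaired mouse 4, against 8.83 to 8.84.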

How the results depend on the processing

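Of 207 values of the 10 precursors under alternatives, 198 kept their direction, 9 turned it, and none passed an adjusted p of 0.05. The 198 include settings in which the difference could not turn. It is unchanged without a filter, with the lowest 50% left out and with the intensity trend and robust prior. For these genes the mean of probe sets, the replicate block and the permutation also leave it unchanged. With the striatum score as a covariate Penk was 0.11, Tac2 0.044 and Tac1 0.72, the largest value of any precursor in any setting. With the thalamus or the habenula score Tac1 was -0.30 and -0.15. Leaving out each mouse in turn, Tac1 ran from -0.27 to 0.41 and Tac2 from -0.43 to 0.087. The causes were not tested. All genes gave 0 calls in every setting except 1 with an intensity trend and robust prior. By exact permutation none passed, since its lowest p with 4 mice per group was reached by 377 of 14629 genes, too few for the adjustment. Genes with an unadjusted p under 0.05 numbered 434 with the lowest 50% left out, where fewer genes are tested, and 377 by exact permutation. In the permutation only groups that do not overlap reach that level. The 1 precursor at that level, Pdyn, became 0 without a filter, with arrays centred on their median, with the trend, with the replicate block, with the choroid plexus score and by permutation. Pdyn also lost it with the striatum and the habenula score (unadjusted p = 0.277 and 0.0525), where the 1 precursor was Tac1 and Tac2. Pdyn kept it with the lowest 50% left out, a further quantile normalization, array weights, the mean of probe sets and the thalamus score. Without each mouse the count ran from 0 to 2: it was Pdyn without impaired mouse 1 or intact mouse 3, Adcyap1 and Nts without intact mouse 4, and 0 otherwise. The labels do not say whether the replicate numbers pair the mice. Deviations of same-numbered mice correlated across genes at 0.028, 0.033, -0.048 and -0.10. Those of differently numbered mice correlated at -0.13 to 0.12. These values cannot settle whether same-numbered mice shared a litter or a batch. With the replicate number as a block 0 genes were called, and 633 had an unadjusted p under 0.05.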
